A study of Mus musculus with 28 samples.

Results

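The RNA of 7 single mouse neurons grown in culture and drawn up one by one with a glass pipette was compared by brain region, 4 neurons from cortex against 3 from hippocampus. They were chosen by the source name in their labels and are 7 of the 28 libraries of a study that also captured neurons by TIVA and sequenced neurons and pieces from brain tissue. TIVA (transcriptome in vivo analysis) uses a light-activated tag that binds polyadenylated RNA inside a chosen cell. All 7 neurons came from C57BL/6 mice with no transgene or knockout in the labels, were kept on coverslips for 7 to 9 days and received no treatment. Each library is 1 cell, and its RNA was amplified linearly in 3 rounds of in vitro transcription. The labels name no animal, culture, age or sequencing date, so each region counts as 1 sample, no test was run, and differences are given by size beside the spread over cells. The title style of the records also differs between the regions, so any batch and the region cannot be told apart.

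Cortex and hippocampus both hold glutamatergic projection neurons and GABAergic interneurons. The cortex arranges its projection neurons in layers with distinct targets, whereas the hippocampus arranges them in the CA fields and the dentate gyrus, a circuit known for its part in forming memories. In dissociated culture these positions are lost, and a cell drawn from the dish can belong to any of the classes its region supplied. Linear amplification of the RNA of 1 cell can lose transcripts that are present in few copies.

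The tables count reads over 28661 features named by UCSC known-gene identifiers, of which 11967 join several isoform identifiers. None of the 55419 identifiers could be paired with a gene symbol from the tables at hand, so the regions are described by numbers of features, and 2 features in each direction are given by identifier. Whether the cells carried markers of neurons, of either region or of glia could not be checked for the same reason.

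Depth and the share of reads outside annotated features varied as much within a region as between them. Assigned reads were 11.2 to 25.7 M (M for mega) in the cortical neurons and 9.89 to 32.9 M in the hippocampal neurons. A count of 0 allowed levels of up to 0.117 to 0.267 CPM (counts-per-million of assigned reads; here the worth of 3 reads) in cortex and 0.0912 to 0.303 CPM in hippocampus, by counting error only. Reads outside features made up 46.7% to 81.1% of all counted reads in cortex and 31.5% to 75.3% in hippocampus.

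Hippocampal pipette neurons held more features than cortical ones. With every library reduced to 9.13 M reads, the smallest total among the cultured neurons, features with 1 or more reads numbered 15374, 14019, 13129 and 16291 in the cortical neurons in order of replicate. In the hippocampal neurons they numbered 20870, 19638 and 17156. The regions did not overlap, and the medians of 14696.5 (SD 1404, n = 4) and 19638 (SD 1892, n = 3) differed by 4941.5 features, which is more than the spread over cells of either region. Within hippocampus the neuron with the fewest features, replicate 3, was also the most deeply sequenced and had the lowest share of reads outside features, 31.5%. Within cortex the order was different, since replicate 2 had the lowest such share, 46.7%, and replicate 3 the fewest features. The part of these reads in the difference was not tested. In the cultured TIVA libraries, which share no cell with these, the order of the medians at the same depth was opposite, 18447 features in cortex (15696 to 20928, n = 4) and 16121.5 in hippocampus (13296 to 17190, n = 4), with overlapping ranges. The 50 most abundant features took a median of 40.6% of reads in cortical and 53.5% in hippocampal TIVA libraries. In the pipette libraries they took 18.2% and 15.4%. Equal depth therefore left fewer reads for other features by TIVA, and the part of this in the order was not tested.

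**Figure D1:**
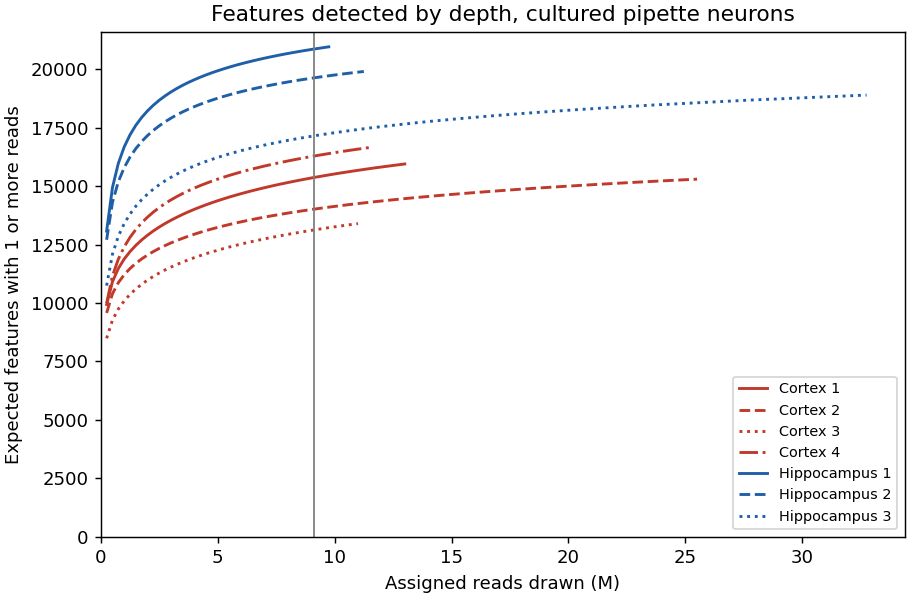
Expected number of features with 1 or more reads (vertical axis) against the assigned reads drawn from a library (horizontal axis, M), for each cortical (red) and hippocampal (blue) pipette neuron, up to its own total. At the grey line, 9.13 M reads, the 3 hippocampal neurons lie between 17156 and 20870 features and the 4 cortical neurons between 13129 and 16291.

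The difference in detection was seen at low levels. At 10 CPM or more the cortical neurons held a median of 7710 features (6860 to 7800) and the hippocampal neurons 8869 (7795 to 9024), with the hippocampal replicate 3 just inside the cortical range. At 50 CPM or more the medians were 3961 (3859 to 4264) and 3870 (3609 to 3896), a difference of −91 features with overlapping ranges. The medians of abundant features thus differed by less than the SD over cells of either region. The means, 4011 (SD 178) in cortex and 3792 (SD 159) in hippocampus, differed by more than either SD. Only cortical replicate 1, at 3859, lay within the hippocampal range.

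The most abundant single feature took more of a cortical than of a hippocampal library, and the regions overlapped over longer lists. The 50 most abundant features of each cell took a median of 18.2% of its reads in cortex (13.9% to 19.4%) and 15.4% in hippocampus (14.2% to 18.3%), ranges that overlap. The single most abundant feature took 1.13% to 3.02% of reads in cortex and 0.912% to 1.09% in hippocampus, ranges that do not overlap. Hippocampal cells shared 33 or 34 of their 50 most abundant features with each other, cortical cells 23 to 34 (median 30.5 over 6 pairs), and a cortical with a hippocampal cell 19 to 36 (median 24.5 over 12 pairs). In all, 13 features were among the 50 most abundant in each of the 7 cells.

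The 3 hippocampal pipette neurons resembled each other closely, and the 4 cortical pipette neurons did not. Similarity was measured as Pearson's r of log2(CPM + 10) across 11313 features, those with a mean of 5 CPM or more over the 7 libraries. Features are not independent replicates, so r describes the libraries and has no p-value. It was 0.850 to 0.919 between hippocampal neurons (median 0.893, 3 pairs) and 0.560 to 0.619 between cortical neurons (median 0.605, 6 pairs). Between the regions it was 0.590 to 0.793 (median 0.644, 12 pairs), so the median across regions lay above the highest value within cortex. Over the same features r was 0.854 to 0.922 between cultured cortical TIVA libraries (median 0.892). It was 0.823 to 0.967 between hippocampal ones (median 0.855) and 0.805 to 0.943 across the TIVA regions (median 0.847). The low values within cortex were thus not seen by TIVA. The features were chosen by their mean over the pipette libraries, and the part of this choice in r was not tested.

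By r, every cortical neuron was closest to a hippocampal neuron among the other 6 libraries, 3 of them by small margins. Cortical replicate 2 had r = 0.793 with hippocampal replicate 3 and at most 0.611 with another cortical neuron. For cortical replicates 1, 3 and 4 the best hippocampal values were 0.675, 0.640 and 0.647, and the best cortical values 0.619, 0.619 and 0.606. The overlap of the 50 most abundant features gave another order. By it cortical replicates 1, 3 and 4 shared most with another cortical cell, 34, 33 and 34 features against at most 23, 22 and 30 with a hippocampal cell. Replicate 2 alone shared most with a hippocampal cell, 36 features against at most 30. All 3 hippocampal neurons were by r closest to another hippocampal neuron, at 0.893 or more. The within-region values of r had an SD of 0.148. This SD pools both regions, so it holds the distance between them and does not measure the spread over cells. The mean of both within-region medians exceeded the between-region median by 0.105. All of that excess came from hippocampus, since the cortical median lay below the between-region one.

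**Figure D2:**
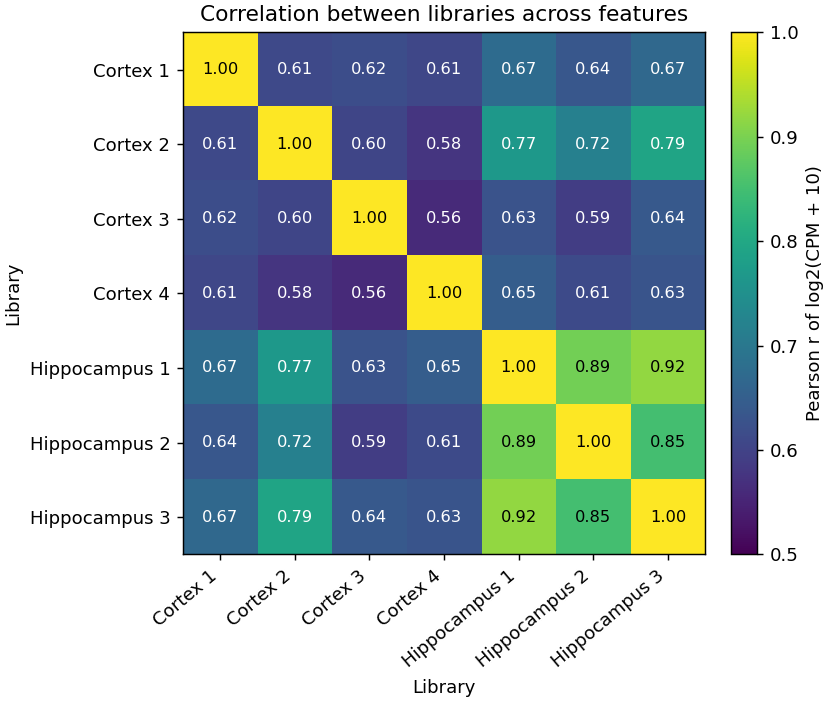
Pearson's r of log2(CPM + 10) across 11313 features for each pair of the 7 pipette neurons, by colour and printed value. The hippocampal block reaches 0.850 to 0.919, whereas the cortical block, at 0.560 to 0.619, is no higher than the block between the regions.

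Single features showed the same contrast in spread. Over the 11313 features the median standard deviation (SD) of log2(CPM + 10) was 0.95 over the cortical neurons and 0.36 over the hippocampal neurons, and 85.1% of features had the higher SD in cortex. The share was 83.2% for features with means of 5 to 20 CPM, 89.3% at 20 to 100 CPM, 80.6% at 100 to 500 CPM and 72.3% of the 260 features at 500 CPM or more, so the contrast extended to abundant features. Cultured cortical neurons captured by TIVA had a median SD of 0.42 over the same features and hippocampal ones 0.47. Over these features the wide spread was thus seen in the pipette libraries of cortex and not in the TIVA libraries of that region. The features were chosen by their mean over the pipette libraries alone. A feature high in a single cortical pipette neuron could therefore be included. On the log2(CPM + 10) scale such a feature has a low SD in any group where its level is low. The part of this choice in the SDs and shares was not tested.

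The cortical pipette neurons also differed in which features reached 1 CPM. Taking the features that reached 50 CPM in a cortical neuron, a median of 6.49% were below 1 CPM in another cortical neuron (4.55% to 12.6% over 12 ordered pairs), against 0.155% among hippocampal neurons (0% to 1.16% over 6 ordered pairs). The ranges did not overlap, and the hippocampal median was 0.578% without replicate 1 and 0.103% without replicate 2. With 0 reads as the lower limit the medians were 1.83% in cortex and 0.0128% in hippocampus. Most of the cortical features counted thus had reads in the other cell. Across the regions, a median of 3.54% of the features that reached 50 CPM in a hippocampal neuron were below 1 CPM in a cortical one (1.14% to 8.24%). In the opposite direction the median was 1.36% (0.225% to 4.03%), a range that lies wholly below that among cortical pipette neurons. By the same limits the median was 0% among cultured cortical TIVA libraries (0% to 0.219%). Among hippocampal TIVA libraries it was 0% as well (0% to 0.286%). The larger share was thus seen in the pipette libraries of cortex and not in its TIVA libraries.

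Features abundant in 1 pipette neuron and below 1 CPM in the rest of its region were found mainly in cortex. Cortical replicate 4 had 154 features at 50 CPM or more that were below 1 CPM in the 3 other cortical neurons, and replicates 1, 2 and 3 had 57, 37 and 61. The hippocampal neurons had 2, 10 and 0 such features against the other 2 cells of their region. Of the 154 in cortical replicate 4, 28 were also below 1 CPM in every hippocampal neuron and 17 reached 20 CPM in at least 1 of them, so most were present in hippocampus at low levels. In cortical replicates 1, 2 and 3 the features below 1 CPM in every hippocampal neuron numbered 13, 2 and 12, and those that reached 20 CPM in at least 1 numbered 5, 10 and 9.

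What the cortical neurons had in common was nearly all present in the hippocampal neurons, and the opposite held less fully. At 20 CPM or more in every cell of the region there were 2979 features in cortex and 5136 in hippocampus. Of the cortical 2979, 2977 reached 1 CPM or more in all 3 hippocampal neurons, and none was below 1 CPM in all 3. Of the hippocampal 5136, 4442 (86.5%) reached 1 CPM in all 4 cortical neurons, 512 were below it in 1 of them, 137 in 2, 34 in 3 and 11 in all 4. By cell, 227, 109, 404 and 192 of the 5136 were below 1 CPM in cortical replicates 1 to 4. Cortex has 4 cells and hippocampus 3, and with any 3 cortical cells the cortical number rose to 3370 to 3560, of which 99.7% to 99.9% reached 1 CPM in every hippocampal neuron.

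Features at 20 CPM or more in every hippocampal and below 1 CPM in every cortical pipette neuron numbered 11, 0.0972% of those measured. They averaged 22.6 to 465 CPM in hippocampus (median 50.0), and 3 of them had 0 reads in every cortical pipette neuron. The cultured TIVA libraries share no cell with the pipette libraries and give a separate reading. There 10 of the 11 reached 1 CPM in at least 1 of 4 cortical libraries, and 5 in all 4. Their median level was 2.64 CPM in the cortical and 15.6 CPM in the hippocampal TIVA libraries. All 11 were higher in hippocampus by mean log2(CPM + 10), beside 34.5% of all measured features. No share over all features is given for the counts at 1 CPM.

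More features were set apart toward hippocampus than toward cortex. A feature is called set apart here when its mean log2(CPM + 10) differed by 2 or more (4-fold on that scale, which understates the change of low features) and every cell of 1 region lay above every cell of the other. There were 170 such features higher in hippocampus, 1.5% of the 11313 measured, and 45 higher in cortex, 0.398%. Without the condition on overlap 206 (1.82%) and 76 (0.672%) passed, and with no overlap but any size 1046 (9.25%) and 377 (3.33%). Without cortical replicate 2 the 170 and 45 set apart became 322 and 143, and without any other 1 cell 163 to 255 and 46 to 65. With fewer cells the condition on overlap is easier to meet. Scaling moved the split, to 114 and 74 with TMM and to 102 and 90 with DESeq2 size factors. The median log2 difference over all 11313 features, hippocampus minus cortex, was itself 0.11 by library total, −0.09 by TMM and −0.15 by DESeq2.

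The features higher in hippocampus had a median log2 difference of 2.42, and 37 of the 170 differed by 3 or more. Their median level was 162 CPM in the hippocampal and 23.3 CPM in the cortical neurons. Low values in cortex came from some cells more than others, since 85 of the 170 were below 1 CPM in at least 1 cortical neuron and 119 reached 20 CPM in at least 1. Cortical replicate 2 was the least distant from hippocampus over them, with a median log2 difference of −2.05 from the hippocampal mean, against −2.77, −2.93 and −2.46 in replicates 1, 3 and 4. The features higher in cortex had a median log2 difference of 2.58 and median levels of 206 CPM in cortex and 21.8 CPM in hippocampus. They were mostly lowered rather than missing in hippocampus, where 2 of the 45 were below 1 CPM in at least 1 cell. This was not particular to the set. Of features at 20 CPM or more in every cortical neuron, 2977 of 2979 reached 1 CPM in all 3 hippocampal neurons. In the opposite direction 4442 of 5136 reached it in all 4 cortical neurons. Features that join several isoform identifiers made up 61.2% of the first set, 60.0% of the second and 67.3% of all measured features.

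**Figure D3:**
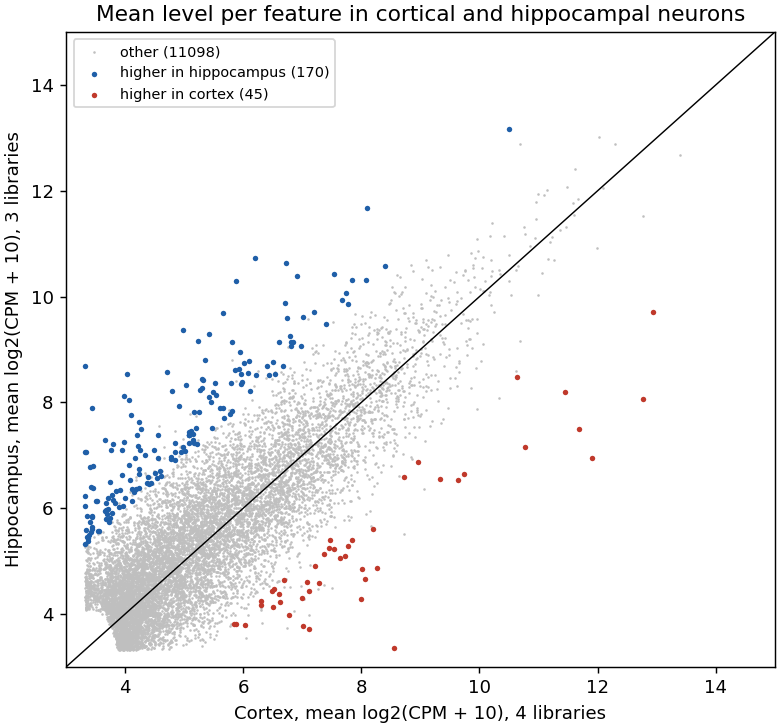
Mean log2(CPM + 10) of each of 11313 features in the 4 cortical (horizontal axis) and 3 hippocampal (vertical axis) pipette neurons, with the line of equal levels. The 170 features set apart toward hippocampus (blue) reach down to the left edge, where cortical levels are near 0 reads, and the 45 toward cortex (red) include features of high level in both regions.

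Of the features higher in hippocampus, uc009ije.1 had the largest difference. It had 576, 645 and 173 CPM in the hippocampal neurons and 0, 1, 0 and 0 reads in the cortical neurons, so the regions were far apart and 1 read stood for the whole of cortex. Its difference in mean log2(CPM + 10) was 5.37, and 5.95 without hippocampal replicate 3. The summed counts were 18683 reads in hippocampus, 345 CPM (340 to 350 by an exact 95% Poisson interval), and 1 read in cortex, 0.0162 CPM (0.000411 to 0.0904). Their ratio was 21281 with an exact interval of 3819 to 840586, which covers counting error only and not the spread over cells. In the cultured TIVA libraries it had 32.5, 10.1, 26.1 and 13.0 CPM in cortex and 89.5, 122, 148 and 159 CPM in hippocampus, again without overlap. The TIVA log2 difference was 2.24, so the direction was the same and the feature was present in cortical TIVA libraries.

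The second, uc008xqu.1, had 3330, 1380 and 1067 CPM in the hippocampal neurons and 25.1, 529, 0.624 and 136 CPM in the cortical neurons. The lowest hippocampal level was 2.02 times the highest cortical one, and the cortical levels ran from under 1 to over 500 CPM. On the CPM scale the means of 1926 CPM (SD 1226, n = 3) and 173 CPM (SD 245, n = 4) differed 11.2-fold. The difference of mean log2(CPM + 10) was 4.54. It was 5.50 without cortical replicate 2 and 3.61 without cortical replicate 3, the cells with the highest and the lowest cortical levels. Summed counts gave 1546 CPM (1536 to 1557) and 251 CPM (247 to 255), a log2 difference of 2.57 after adding 10 CPM to each. The TIVA libraries did not show the difference, with 403 to 1891 CPM in cortex and 296 to 2013 CPM in hippocampus.

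In the other direction uc012hid.1 had the largest difference. It had 771, 17.2, 2399 and 377 CPM in the cortical neurons and 5, 0 and 12 reads in the hippocampal neurons, or 0.505, 0 and 0.365 CPM. Cortical replicate 2 was low among the cortical cells and still 34.0 times above the highest hippocampal one. The difference in mean log2(CPM + 10), hippocampus minus cortex, was −5.19, with −6.45 without cortical replicate 2 and −4.29 without cortical replicate 3. The cortical cells together held 41873 reads, 680 CPM (673 to 686), and the hippocampal cells 17 reads, 0.314 CPM (0.183 to 0.503). This feature was abundant in all cultured TIVA libraries, at 422 to 787 CPM in cortex and 266 to 779 CPM in hippocampus, so its near absence was seen in the hippocampal pipette neurons and not in the hippocampal TIVA neurons.

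The second in this direction, uc008nqd.1:uc008nqe.1, had 5084, 1883, 6971 and 3290 CPM in the cortical neurons and 172, 373 and 17.4 CPM in the hippocampal neurons. The lowest cortical level was 5.05 times the highest hippocampal one. On the CPM scale the means of 4307 CPM (SD 2207, n = 4) and 187 CPM (SD 178, n = 3) differed 23.0-fold. The difference of mean log2(CPM + 10), which weights the cells equally on the log scale, was −4.96, and it was −3.87 without hippocampal replicate 3 and −5.77 without hippocampal replicate 2. Summed counts gave 3757 CPM (3742 to 3772) and 120 CPM (117 to 123). In the TIVA libraries it had 1055, 767, 77.8 and 359 CPM in cortex and 4945, 855, 434 and 318 CPM in hippocampus. These ranges overlap, and a single hippocampal library lies above all the others.

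**Figure D4:**
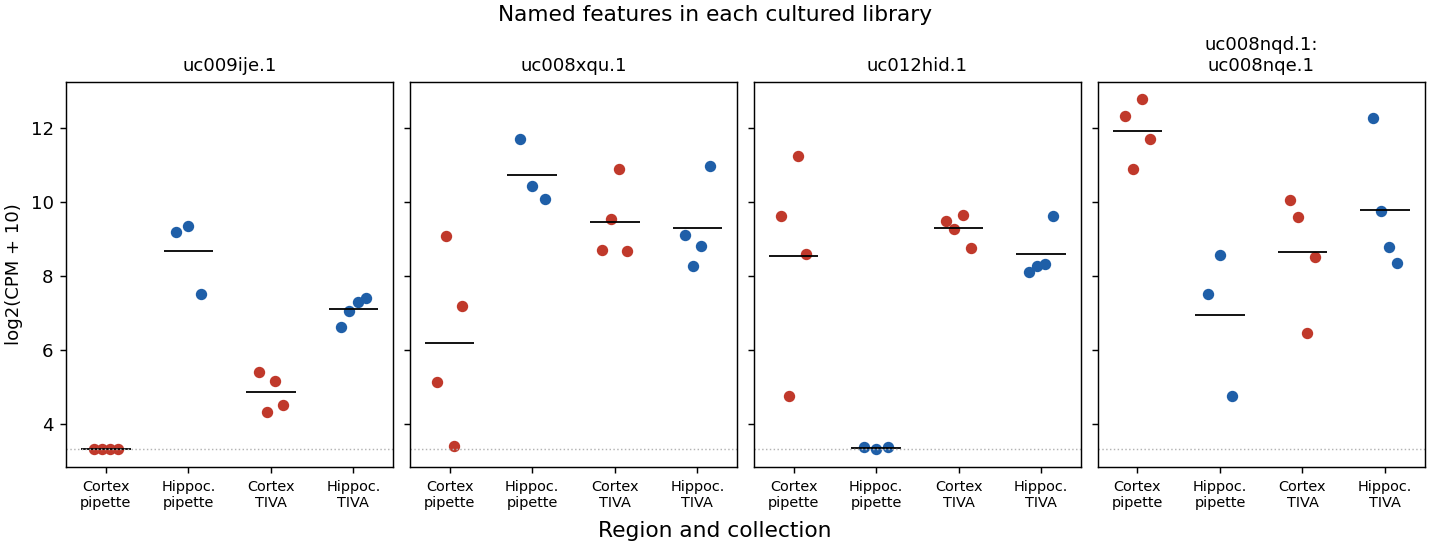
Level of the 4 named features as log2(CPM + 10), 1 point per library and a bar at the mean, in cortical (red) and hippocampal (blue) cultured neurons collected by pipette or by TIVA; the dotted line is 0 reads. The pipette regions do not overlap in any panel, a condition of the choice, and the TIVA regions are apart only for uc009ije.1.

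Fewer features were set apart between the TIVA libraries of cultured neurons, 4 from cortex and 4 from hippocampus, which had been loaded with 10 µM tag for 15 min. By the same limits, with 1 library more to separate, 8 features of 10163 measured there (0.0787%) were set apart toward hippocampus and 20 (0.197%) toward cortex. Of the 170 features set apart toward hippocampus by pipette, 4 were set apart by TIVA as well, and of the 45 toward cortex 1 was. Across the 11313 features measured by pipette the 2 region differences had r = 0.220, and 54.1% had the same sign.

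Features higher in hippocampus by pipette mostly had the same direction by TIVA. It was the same in 128 of 170, 75.3% (63.7% to 81.8% on leaving out any 1 of the 15 libraries), whereas 34.5% of all measured features were higher in hippocampus by TIVA. Their median TIVA difference was 0.36, against −0.13 over all measured features, and 39 of the 170 (22.9%) did not overlap between the TIVA regions in this direction, against 2.08% of all measured features. When both contrasts were scaled by TMM, 114 features were set apart toward hippocampus by pipette and 101 of them (88.6%) had the same direction by TIVA, beside 51.2% of all features. The quartiles of the TIVA difference were 0.03 and 0.73 over the 170 features and −0.40 and 0.10 over all measured features.

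Features higher in cortex by pipette lay nearer to the level of all features. The direction was the same in 32 of 45, 71.1%, while 65.5% of all measured features were lower in hippocampus by TIVA. With TMM the share was 58.1% of 74 features beside 48.7% of all, and with DESeq2 size factors 61.1% of 90 beside 51.0%. Their median TIVA difference of −0.15 lay beside −0.13 over all features, and 3 of the 45 (6.67%) did not overlap in this direction, against 3.63%. The lower quartile was −0.76, beside −0.40 over all features. On leaving out a library the share was 62.2% to 75.6%, except without the first cortical TIVA library, where it was 48.9% beside 60.7% of all features.

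**Figure D5:**
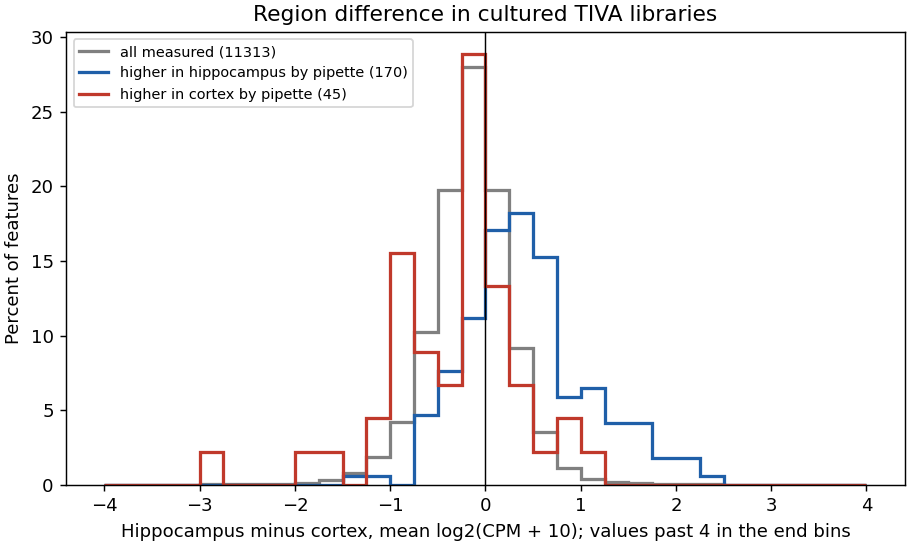
Distribution of the difference in mean log2(CPM + 10) between hippocampal and cortical TIVA libraries (horizontal axis), as the percent of features (vertical axis), for all 11313 measured features (grey) and for those set apart by pipette toward hippocampus (blue, 170) and toward cortex (red, 45). The blue curve lies to the right of the grey one, with medians of 0.36 and −0.13, and the red median of −0.15 lies beside the grey.

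The pipette libraries also ranked the TIVA libraries by region unequally. Hippocampal pipette neurons had a median r of 0.801 with hippocampal and 0.739 with cortical TIVA libraries. Cortical pipette neurons had 0.656 with cortical and 0.666 with hippocampal TIVA libraries, so they were no closer to the TIVA libraries of their own region.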

How the data were processed

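The authors deposited 1 table of read counts per library, and the submitters' processing notes name CASAVA 1.8.1, HTSeq and the mouse build mm9. No aligner, HTSeq version, overlap mode or strand setting is given in the sources used here. Reads from overlapping, antisense or near-identical features could therefore not be told apart. The 5 HTSeq summary lines, 3 of them 0 in every library, were left out of library totals. Counts were scaled to CPM and compared as log2(CPM + 10) where the mean over the 7 libraries was at least 5 CPM. Detection at equal depth is the exact hypergeometric expectation. The comparison script was checked on simulated data. Named features had a group mean of 20 CPM or more, 10 or more reads in each cell of the higher region and no overlap, and were ranked by log2 difference. The first 2 of 817 toward hippocampus and of 368 toward cortex are printed, because the files do not pair identifiers with symbols. This rule, the limits and the alternatives were chosen with earlier results of these data known. The lists of marker and pathway genes drawn up for the study could not be used without symbols. As a check for a library deposited more than once, counts were compared between cells of a region, and no pair was within sampling noise (lowest chi-square per degree of freedom 80.9). Intervals on summed counts cover counting error only, and the cells differ by far more. Scripts used Python 3.11.15, numpy 2.4.6, scipy 1.17.1, and R 4.3.3 with edgeR 4.0.16 (TMM) and DESeq2 1.42.0 (size factors) for scaling alone, and no test was run with them.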

Additional observations from a re-analysis of the deposited data

Results flagged for a closer look

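Among 21 sets of 4 cells examined for a cell far from the others, of which chance would mark about 1 in 20, 2 were marked. For uc009ije.1 the cortical pipette replicate 2 had log2(CPM + 10) of 3.33 and the other cortical cells 3.32, a gap made by a single read. For uc012hid.1 the hippocampal TIVA replicate 4 had 9.62 and the other hippocampal TIVA libraries 8.11 to 8.34, which placed that library within the cortical TIVA range.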

How the results depend on the processing

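The 9 comparisons were recomputed under 104 alternatives, of which 80 stayed near the reported value. Features detected differed by 4941.5 between medians (3700.5 to 5619 on leaving out a cell), by 1159 at 10 CPM or more and by −91 at 50 CPM or more. Features set apart toward hippocampus numbered 163 to 322 on leaving out a cell, 102 with DESeq2 size factors, 660 with a pseudocount of 1 CPM and 805 with a log2 difference of 1. Those toward cortex numbered 46 to 143, 74 with TMM, 90 with DESeq2, 112 with a pseudocount of 1 CPM and 274 with a log2 difference of 1. The on-off share was 11.3% in cortex and 0.619% in hippocampus with an on limit of 20 CPM, and 1.83% in cortex with an off limit of 0 reads. The share of hippocampus-high features with the same direction by TIVA was 63.7% to 81.8% on leaving out a library, 88.6% with TMM, 88.2% with DESeq2, 55% with a pseudocount of 1 CPM and 83.5% over reads outside the 50 most abundant features, an alternative chosen after seeing the data. The shares of all measured features were 51.2%, 48.9%, 34.1% and 47.6% in these 4. For cortex-high features it was 48.9% to 75.6%, and 54.7% over reads outside the 50 most abundant features, beside 52.3% of all. Where values moved, the cause was not tested. Each of the 4 named features had the same direction in all 11 recomputations. They were chosen for no overlap, so leaving out a cell, another pseudocount or summed counts could not reverse them. With a pseudocount of 1 CPM the log2 differences of uc009ije.1 and uc012hid.1 were 8.64 and −8.05. No paired analysis was possible because the labels name no animal or culture. The libraries were numbered in accession order, and no result comes from a test. In the library of 9.89 M reads a count of 0 allowed levels of up to 0.303 CPM, by counting error only.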
